A study of Rattus norvegicus with 4 samples.

Results

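The tricarboxylic acid cycle enzymes were followed through 9 listed genes, Cs, Idh3a, Idh3b, Idh3g, Ogdh, Dlst, Suclg1, Fh and Mdh2, of which 8 had a named probe set among the 13810 genes named on the arrays. They were found by the gene symbol of each probe set and not by any measured value. The day 1 arrays carried 10 probe sets for 8 of the genes, and the day 3 arrays carried 1 probe set, for Ogdh. Fh had no probe set under its own name or as Fh1 on either design.

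RNA came from the cochlear lateral wall of rats, after 3-nitropropionic acid (3-NP) or saline had been infused at the left round window niche. The groups were 3-NP at 300 mM after 1 day and after 3 days, and saline after 1 day and after 3 days, with 1 array per group and 4 arrays in all. Every group consisted of female Sprague-Dawley rats of 180 to 210 g, aged 8 to 10 weeks, and per the labels' protocols all were operated on under pentobarbital and lidocaine and lost the right cochlea to surgery. How many animals contributed to each array is not stated in the labels. No difference therefore has a replicate check, no p-value was computed, and the values describe these 4 arrays.

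The cycle oxidises acetyl groups to CO2 in the mitochondrial matrix and passes the electrons to the respiratory chain. Citrate synthase condenses acetyl-CoA with oxaloacetate, and isocitrate dehydrogenase, the oxoglutarate dehydrogenase complex and succinyl-CoA ligase then lead to succinate. Succinate dehydrogenase, the enzyme that 3-NP inhibits, oxidises succinate to fumarate, and fumarase and malate dehydrogenase close the cycle. The spiral ligament, which makes up most of the lateral wall, is known for returning potassium to the endolymph by ion pumps that consume ATP. The listed genes thus fall into 7 that act before succinate and 2 that act after it, Fh and Mdh2.

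At day 1 the ratios of all 8 measured cycle enzyme genes lay within 1.5-fold of the median gene. Relative to that gene their log2 ratios of 3-NP over saline ran from -0.49 for Ogdh to 0.16 for Cs, with a median of -0.03, while the quartiles of all 6533 measured genes were -0.40 and 0.41 around a median of 0 set by the centring. Of the 8 genes, 4 lay above the median gene and 4 below it. As deposited 7 of 8 had the higher signal in 3-NP and the median was 0.41. Most measured genes were higher as deposited too, with 23.6% of them below Vdac2, which was at 0.01 as deposited. Of the members 0 of 8 were at least 2-fold higher in 3-NP and 0 of 8 at least 2-fold lower, where 7.76% and 6.47% of all measured genes were. At 1.5-fold the members' counts were again 0 and 0, against 17.1% higher and 16.6% lower among all measured genes. A band of 1.5-fold around the median gene, which held all 8, held 66.3% of all measured genes. With 8 genes, counts of 0 lie near the 2-fold shares. The members were also brighter than both array medians, while the measured genes include dim ones. With the filter in both arrays, the 1.5-fold shares of all genes were 13.5% higher and 13.6% lower.

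Properties of the arrays set the scale of these ratios. The 3-NP array of day 1 was the brighter one, with a median signal of 60.7, against 44.9 in the saline array, and its median gene had a log2 ratio of 0.44. Ratios are therefore given relative to the median gene unless called as deposited. The technical spread of log2 ratios, estimated from 744 genes with more than 1 measured probe set, had an SD of 0.35 per probe set, so that a difference between 2 genes had an SD of 0.50. This spread covers probe sets and hybridisation, and leaves out animals and dissections. Of the 8 cycle enzyme genes, 7 lay within 0.35 of the median gene, and Ogdh lay outside. For scale, 27.4% of all measured genes lay below Sdhb at -0.35, and 71.8% lay below Glud1 at 0.35. All measured genes include dim ones, so this share is not matched to the members.

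Cs, which encodes citrate synthase, the entry of acetyl-CoA into the cycle, was read by 3 probe sets. The brightest (1375295_at) had a signal of 563 in 3-NP, against 372 in saline, a relative log2 ratio of 0.16. The next (1369967_at) had 349.8 in 3-NP, against 221 in saline, at 0.22, and the dimmest (1384201_at) had 194 in 3-NP, against 133 in saline, at 0.10. All 3 probe sets placed Cs slightly above the median gene, with a mean of 0.16 ± 0.06 (SD over 3 probe sets of the same 2 arrays). Cs was the highest of the 8 members, and 60.5% of all measured genes lay below its brightest probe set.

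The NAD-dependent isocitrate dehydrogenase was read by 1 probe set for each of its 3 subunits, which lay within the technical spread of each other. Idh3a, which encodes the catalytic alpha subunit, had 232 in 3-NP, against 164 in saline, at 0.06 (1367911_at). Idh3b, which encodes the beta subunit, had 529.8 in 3-NP, against 359 in saline, at 0.12 (1388160_a_at). Idh3g, which encodes the regulatory gamma subunit, had 595 in 3-NP, against 546 in saline, at -0.32 (1370865_at). Idh3g was 0.38 below Idh3a and 0.44 below Idh3b on the log2 scale, both less than the SD of 0.50 for a difference between 2 genes. Idh3a and Idh3b differed by 0.06.

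The oxoglutarate dehydrogenase complex, which makes succinyl-CoA, was read at day 1 by a single probe set for each component. Ogdh, which encodes its first, decarboxylating component, had 451 in 3-NP, against 468 in saline (1390020_at). It was the only measured member with a lower deposited signal in 3-NP, and its relative log2 ratio of -0.49, a 1.41-fold difference, was above that of 20.4% of all measured genes. Dlst, which encodes the succinyltransferase core of the same complex, had 254 in 3-NP, against 173 in saline, at 0.11 (1370879_at). Ogdh was 0.60 below Dlst, or 1.21 times the SD of a difference. Dld, which encodes the lipoamide dehydrogenase that this complex shares with others, lay between them at -0.14, with 259.7 in 3-NP and 211 in saline.

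Suclg1, which encodes the alpha subunit common to both succinyl-CoA ligases, had 485 in 3-NP, against 392 in saline, at -0.13 (1367642_at). Its 2 partner subunits lay further down. Suclg2, which encodes the GTP-forming beta subunit, had 278 in 3-NP and 338 in saline, at -0.72, and Sucla2, which encodes the ATP-forming one, had 580.1 in 3-NP and 568 in saline, at -0.41. Suclg2 was 0.59 below Suclg1, which exceeds the SD of a difference, and Sucla2 was 0.28 below it, which does not.

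Mdh2, which encodes mitochondrial malate dehydrogenase and is the sole measured member after succinate, had 707 in 3-NP, against 608 in saline (1369927_at). Its relative log2 ratio was -0.22, with 35.8% of all measured genes below it. Mdh1, which encodes the cytosolic malate dehydrogenase of the malate-aspartate shuttle, was at -0.49 by its brighter probe set, with 2043 in 3-NP and 2116 in saline. Its other probe set gave -1.10, with 308 in 3-NP and 489 in saline, so both placed Mdh1 below the median gene but disagreed on how far.

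**Figure D1:**
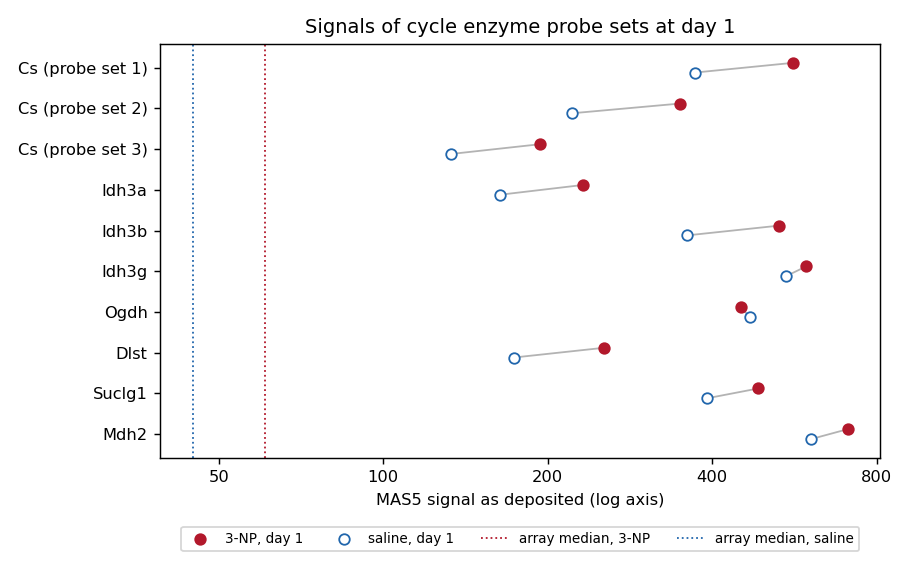
Deposited MAS5 signals at day 1, on a log axis, for the 10 probe sets of 8 cycle enzyme genes in the order of the steps, with filled points for the 3-NP array and open points for the saline array, 1 array each. Dotted lines give each array's median signal, 60.7 in 3-NP and 44.9 in saline; the 3-NP point lies to the right of the saline point for every probe set but that of Ogdh, and all points lie above both medians.

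Steps before and after succinate were then set side by side. After succinate Mdh2 alone stood at -0.22, and before succinate the 7 genes had a median of 0.06 and ran from -0.49 to 0.16. Of these 7 genes, 5 lay above Mdh2 and 2, Ogdh and Idh3g, below it. Mdh2 thus lay inside the range of the earlier steps, 0.28 below their median. With Fh not measured, the side after succinate rests on 1 probe set, and whether the sides differ was not tested.

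At the inhibited step itself, all 4 subunit genes of succinate dehydrogenase lay below the median gene and, as relative ratios, below Mdh2. Sdha, which encodes the flavoprotein that binds succinate, was at -0.34, Sdhb, the iron-sulphur subunit gene, at -0.35 and Sdhc, a membrane anchor gene, at -0.31. As deposited these 3 turned to 0.10, 0.08 and 0.13, and Mdh2 to 0.22. Sdhd, the other anchor gene, was at -0.81 and at -0.46 by a dimmer probe set. By its brighter probe set Sdhd was 0.59 below Mdh2, beyond the SD of a difference, while its dimmer one lay nearer, and Sdha was 0.12 below Mdh2, within that SD. The assembly factor genes went both ways, with Sdhaf1 at 0.71, from 528 in 3-NP and 237 in saline, and Sdhaf2 at -0.28. Of 13 pairs of cycle genes compared in this way by their brightest probe sets, 5 were apart by more than 1 SD of a difference and 0 by more than 2. The pairs were picked, share genes and include the lowest member, Ogdh, against the highest, Cs. How often probe sets of the same gene are that far apart was not counted, so the pair counts test nothing.

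**Figure D2:**
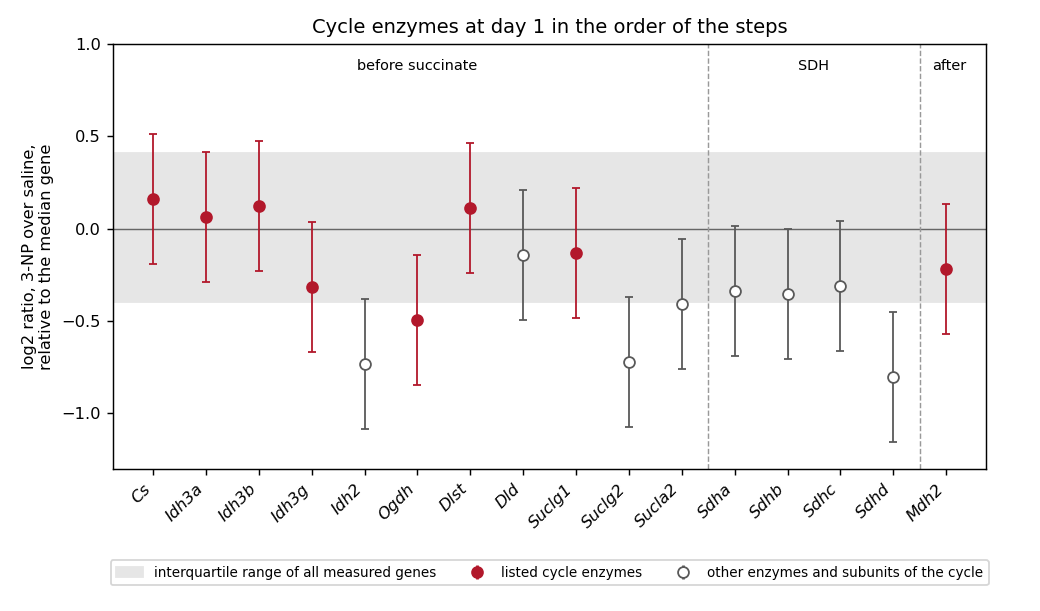
Log2 ratios of 3-NP over saline at day 1 relative to the median gene, for cycle genes in the order of the steps, with bars of ± 1 SD of a probe set (0.35) and the interquartile range of all measured genes shaded. Filled points are the listed genes, which lie between -0.49 and 0.16, and open points are other mitochondrial enzymes and subunits of the cycle, which all lie below 0, with Sdhd lowest of those drawn at -0.81. Cytosolic isoforms and Dhtkd1 (-1.61) are left out.

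Upstream sequences are shown for 3 members that span the range of ratios, Cs as the highest, Ogdh as the lowest and Mdh2 as the step after succinate. They are the 250 bases before the annotated start of each gene, from RefSeq on the GRCr8 assembly, written 5′ to 3′ in the direction of the gene. Capitals mark CCGGAAG, the core bound by ETS factors such as the GA-binding protein, and GGGCGG, the box bound by Sp1, on either strand.
Ogdh promoter, chr14:85363781-85364030, plus strand: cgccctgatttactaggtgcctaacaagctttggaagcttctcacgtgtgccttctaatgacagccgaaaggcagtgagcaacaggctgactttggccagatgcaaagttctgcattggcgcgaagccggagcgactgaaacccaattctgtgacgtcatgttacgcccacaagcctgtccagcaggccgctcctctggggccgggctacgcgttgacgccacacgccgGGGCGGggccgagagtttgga
Mdh2 promoter, chr12:26543842-26544091, minus strand: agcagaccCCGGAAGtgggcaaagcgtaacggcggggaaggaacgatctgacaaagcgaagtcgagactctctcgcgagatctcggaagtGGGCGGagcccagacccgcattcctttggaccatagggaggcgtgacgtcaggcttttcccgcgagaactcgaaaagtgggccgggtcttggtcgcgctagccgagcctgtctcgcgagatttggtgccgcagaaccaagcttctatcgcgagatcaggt
Cs promoter, chr7:1348139-1348388, plus strand: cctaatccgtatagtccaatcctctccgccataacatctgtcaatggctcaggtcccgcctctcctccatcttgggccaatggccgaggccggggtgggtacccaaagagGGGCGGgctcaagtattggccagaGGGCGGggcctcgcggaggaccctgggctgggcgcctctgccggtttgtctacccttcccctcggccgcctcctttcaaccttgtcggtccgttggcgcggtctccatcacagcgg
Promoters were found for 8 of the 9 genes, with Fh among them and without Idh3a. CCGGAAG was present upstream of Idh3b, Idh3g, Dlst and Mdh2, 4 of 8, and in 7.27% of all 33469 promoters of the same length. GGGCGG was present upstream of Cs, Ogdh, Fh and Mdh2, 4 of 8, and in 30.5% of all promoters. AAGGTCA, a site of oestrogen-related receptors, and TGCGCA, the core of the NRF1 site, were in 0 of 8, and in 3.99% and 6.14% of all promoters. The content of G and C in the promoters ran from 47.2% for Idh3b to 65.2% for Idh3g, with a median of 51.2% over all promoters. The shares over all promoters were not matched for this content. None of the 4 motifs overlapped another in the sequences printed. The genes with CCGGAAG lay on both sides of the median gene, from Idh3g at -0.32 to Idh3b at 0.12.

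Other enzymes and isoforms of the cycle overlapped the listed members at day 1 but had a lower median. All 8 measured genes of 10 in that list were below the median gene, with a median of -0.45, against -0.03 for the members. Idh1 and Dld lay above the members Mdh2, Idh3g and Ogdh. As deposited the list's median was -0.011. At least 1.5-fold lower were 3 of 8 (16.6% of all measured genes) and at least 1.5-fold higher 0 of 8. Of those 3, Dhtkd1 passed the filter through the saline array alone, where it was higher; of the other 7, which passed in both arrays, 2 were that low. Idh2, which encodes the NADP-dependent mitochondrial isocitrate dehydrogenase, was at -0.74, with 419 in 3-NP and 514 in saline, 0.80 below Idh3a or 1.61 times the SD of a difference. Dhtkd1, which encodes an Ogdh-like enzyme of lysine breakdown, was at -1.61, with 31.6 in 3-NP and 71.3 in saline. Of the cytosolic enzymes, the aconitase gene Aco1, whose product also binds iron-responsive RNA elements, was at -0.41 and the isocitrate dehydrogenase gene Idh1 at -0.12. The share of these genes at least 1.5-fold lower was 1 of 8 as deposited, against 6.09% of all measured genes. That gene was Dhtkd1, at -1.17 as deposited, so none of the genes that passed the filter in both arrays was that low.

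The lowest list median around the cycle was that of side routes that feed into or draw on succinyl-CoA and succinate. All 7 measured genes of 11 lay below the median gene, with a median of -0.94, which is the value of Aldh5a1. At least 2-fold lower were 3 of 7, against 6.47% of all measured genes, and at least 1.5-fold lower 5 of 7, against 16.6%. As deposited these counts were 1 and 3, against 2.62% and 6.09% of all measured genes. Aldh5a1 passed the filter through the saline array alone, where it was higher, and with the floor at the 40th percentile it was at -0.79. Of the 6 genes that passed in both arrays, 6 lay below the median gene. Among them 4 were at least 1.5-fold and 3 at least 2-fold lower. The lists were drawn up with earlier results of these data known, so the counts describe the lists and test nothing.

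Oxct1, which encodes the enzyme that activates ketone bodies with succinyl-CoA, had 146 in 3-NP, against 403 in saline, a relative log2 ratio of -1.91. Only 0.92% of all measured genes lay below it. Bdh1, which encodes the preceding enzyme of ketone body use, was at -0.89, with 62.8 in 3-NP and 85.7 in saline. A dimmer Bdh1 probe set below the filter gave -0.53, so both ketone body genes were on the same side.

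Propionate breakdown enters the cycle as succinyl-CoA. Pcca, the alpha subunit gene of propionyl-CoA carboxylase, was at -1.38, with 95.0 in 3-NP and 182 in saline, and Pccb, the beta subunit gene, at -0.51. Mcee, which encodes methylmalonyl-CoA epimerase, was at -1.21, with 137 in 3-NP and 234 in saline. The last enzyme of the route, methylmalonyl-CoA mutase, encoded by Mmut, was measured on the day 3 design alone. There it was at -1.25, with 50.9 in 3-NP and 113 in saline, and 2 dimmer probe sets gave -1.11 and -0.65. All 4 genes of the route were thus below the median gene of their day.

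Aldh5a1, which encodes the dehydrogenase that makes succinate from the GABA shunt, was measured on both designs. It was at -0.94 at day 1, with 33.8 in 3-NP and 47.9 in saline, and at -1.53 at day 3, with 33.0 in 3-NP and 89.0 in saline. A dimmer day 3 probe set gave -0.79. Alas1, which encodes the enzyme that draws succinyl-CoA into haem synthesis, was at -0.18, and at 0.26 as deposited.

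Where pyruvate enters, the list median was 0.04 over 9 measured genes of 12, and the regulators stood further from the median gene than the enzyme subunits. Pdha1 was at 0.12 by its brighter probe set and at -0.53 by another, Pdhb at 0.04 and Pdhx at 0.09. These encode parts of the pyruvate dehydrogenase complex, whose product Cs uses. Pdk2, which encodes a kinase that switches the complex off, was at -1.61, with 88.4 in 3-NP and 199 in saline, and at -1.52 by a dimmer probe set. Pdp1, which encodes the phosphatase that switches it on, was at 1.04, with 155 in 3-NP and 55.7 in saline. The kinase genes did not move as one, since Pdk4 was at 0.68 and Pdk3 at -0.57. The pyruvate carrier genes Mpc1 and Mpc2 were at -0.47 and -0.52.

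Of 8 measured genes of anaplerosis and exit, 0 were 1.5-fold apart from the median gene in either direction, where 17.1% of all measured genes were higher and 16.6% lower. As deposited 4 of 8 were at least 1.5-fold higher, close to the 40.2% of all measured genes. The furthest was Got2, the mitochondrial aspartate aminotransferase gene, at 0.51, with a dimmer probe set below the filter at -0.07. Among 6 mitochondrial carriers of cycle intermediates, 5 were below the median gene and 2 at least 1.5-fold lower, where 16.6% of all measured genes were. These 2 were the acylcarnitine carrier gene Slc25a20 (-0.94) and the aspartate-glutamate carrier gene Slc25a13 (-0.61), which passed the filter through the saline array alone, where it was higher. As deposited 0 were that low, where 6.09% of all measured genes were.

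Of 6 general mitochondrial genes measured at day 1, 3 were above and 3 below the median gene, with a median of 0.19. As deposited all 6 had the higher signal in 3-NP, with a median of 0.63. Most measured genes were higher too, with 23.6% of them below Vdac2, which was at 0.01 as deposited. As deposited 2 of the 6 were at least 2-fold and 3 at least 1.5-fold higher, where 17.9% and 40.2% of all measured genes were. The import receptor gene Tomm20 was at 0.62 (0.28 by a dimmer probe set), the one gene at least 1.5-fold higher. Also above the median gene were Tfam at 0.58 and Hspd1 at 0.41. The outer membrane channel genes Vdac1, Vdac2 and Vdac3 were at -0.06, -0.43 and -0.03. Vdac1 and Vdac3 came above the median gene when no filter on dim genes was used, at 0.02 and 0.05.

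**Figure D3:**
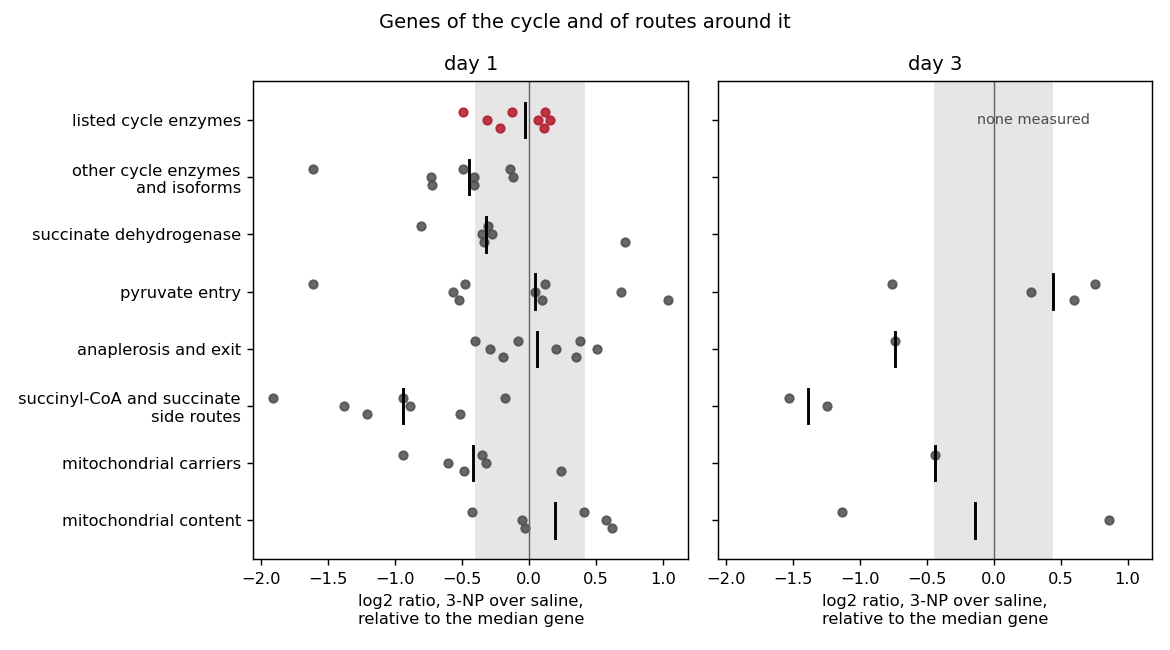
Log2 ratios of 3-NP over saline relative to the median gene for the listed cycle enzymes and 7 lists around the cycle, at day 1 (left) and day 3 (right), with 1 point per gene, black bars for medians and the interquartile range of all measured genes shaded. At day 1 the listed enzymes surround 0 (median -0.03) and the succinyl-CoA and succinate side routes lie lowest (median -0.94). That median is the value of Aldh5a1, which passed the filter through the saline array alone. At day 3 no listed cycle enzyme was measured.

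At day 3 the other array design held a single listed gene. Its Ogdh probe set (1397782_at) had 17.8 in 3-NP, against 3.08 in saline. Both were below the median signals of their arrays, and the saline value was below the floor of 9.22. Against that floor the 3-NP signal was at least 1.80-fold higher relative to the median gene, by a probe set that did not pass the filter. The cycle enzymes were therefore not measurable at day 3, and no course over time is given for them.

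Genes around the cycle that were measured on both days had the same sign on both, 5 of 5, by different probe sets and arrays, as did 71.6% of all 1246 genes measured on both days. Aldh5a1 and Slc25a13 passed the day 1 filter through saline alone, and Pdhx at day 1 lay within the technical SD. Besides Aldh5a1, these were Pdk3 (-0.57 at day 1 and -0.76 at day 3), Pdk4 (0.68 and 0.76), Pdhx (0.09 and 0.28) and Slc25a13 (-0.61 and -0.44). Pdk4 had 131 in 3-NP and 60.1 in saline at day 1, and 878 in 3-NP and 483 in saline at day 3. At day 3 the technical SD per probe set was 0.47, from 805 genes, so the values of Pdhx and Slc25a13 lay within it.

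Further genes were measured at day 3 only. Ppargc1a, which encodes a coactivator of mitochondrial gene programmes, was at -1.13, with 122 in 3-NP and 249 in saline, and at -1.40 by a dimmer probe set. Among the 3972 genes measured that day, 8.18% had ratios of 2-fold or more below the median gene and 9.21% above it, and at 1.5-fold the shares were 19.9% below and 19.1% above. Nrf1, which encodes a transcription factor of the same programmes, was at 0.86 by its brighter probe set, while another, with 3-NP at the floor, was a bound at -1.03, so its direction is unsettled. Me2, a mitochondrial malic enzyme gene, was at -0.73, with a further probe set at the floor in both arrays. Pdp2, a second pyruvate dehydrogenase phosphatase gene, was at 0.60 and at 0.24 by another probe set.

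Marker genes moved with the groups in the same arrays. Of the fibrocyte markers, 6 of 6 measured at day 1 were at least 1.5-fold lower, where 16.6% of all measured genes were. As deposited 4 of 6 were, against 6.09% of all measured genes. Their summed signals were 5207 in 3-NP and 11043 in saline. Stria vascularis and melanocyte markers were present although a protocol field says the stria was left out. Of these, 5 of 5 were at least 1.5-fold lower (4 as deposited), with sums of 1147 in 3-NP and 2313 in saline. Of 4 measured macrophage markers 2, Lgals3 (2.47) and Cd14 (1.54), were at least 2-fold higher, where 7.76% of all measured genes were. Cd14 and Cd68 (0.34) passed the filter through the 3-NP array alone, where they were higher. Csf1r, which passed in both arrays, was at -0.06, and both Aif1 probe sets lay at the floor throughout. The macrophage sums were 1068 in 3-NP, with 736 from Lgals3, and 249.6 in saline. The neutrophil markers S100a8 and S100a9 were at -0.65 and 0.34. The lymphocyte marker Cd3g was at -0.98 and the organ of Corti marker Myo6 at -1.60. S100a8 and Cd3g passed through the saline array alone, where they were higher. The 2 measured erythrocyte markers had sums of 7495 in 3-NP and 3819 in saline, and the 2 measured skeletal muscle markers, Myh1 and Myh2, sums of 1583 in 3-NP and 1025 in saline. Of the other muscle markers on the array, Acta1, Tnnt3, Mb and Casq1 were at the floor on both sides and Ckm was below the filter at -0.71. None of these markers is a cycle gene, and their part in the ratios was not tested. In whole tissue, fewer cells of a type and less RNA per cell cannot be told apart. The 3′ over 5′ signal ratio of Actb controls was 2.53 in 3-NP and 2.69 in saline at day 1, and that of Gapdh 1.46 in 3-NP and 1.34 in saline. At day 3 the Actb ratio was 2.79 in 3-NP and 3.22 in saline, and the Gapdh ratio 1.17 in 3-NP and 1.26 in saline. Coch, the cochlin gene that marks the spiral ligament, had 5677 in 3-NP and 6548 in saline at day 3. The other fibrocyte marker measured that day, Tbx18, was at -1.19. Of 4 stria markers, 3 were at least 2-fold lower and Tyrp1 was higher (Bsnd and Tyrp1 passed the filter in 1 array alone). The macrophage markers Cd163 and Mrc1 were at -1.07 and -1.08. Of all genes measured that day, 8.18% were 2-fold or more below the median gene. Mrc1 passed in both arrays, but Cd163 passed through saline alone, where it was higher, with 11.4 in 3-NP and 22.2 in saline. Another Cd163 probe set, which did not pass and had 3-NP at the floor, was a bound at -0.55.

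**Figure D4:**
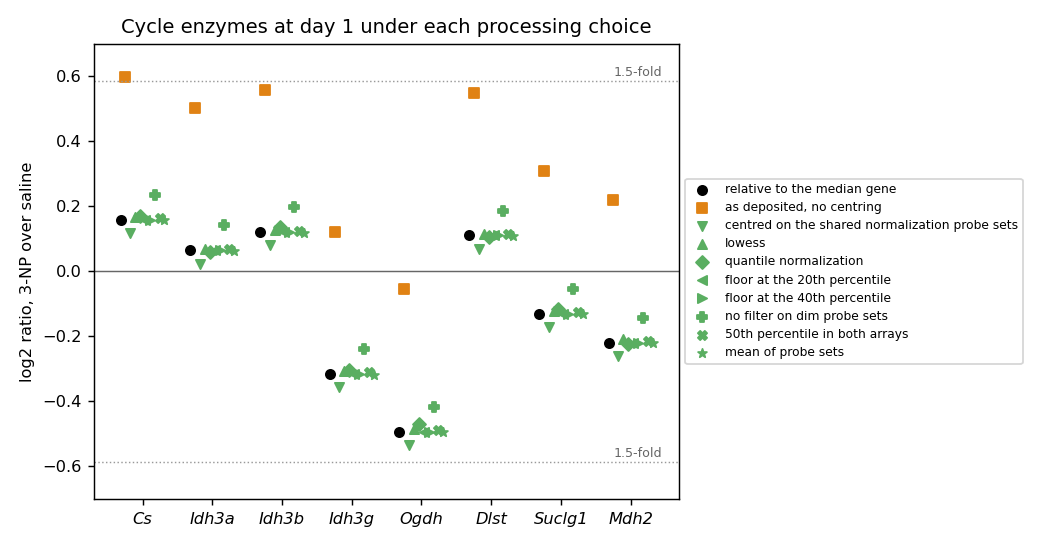
Log2 ratios of 3-NP over saline at day 1 for the 8 measured cycle enzyme genes under each of 10 processing choices, with dotted lines at 1.5-fold. Black points are relative to the median gene and orange squares as deposited, where only Cs passes the upper line (0.60), and Ogdh is the lowest gene under every choice.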

How the data were processed

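Cochlear lateral wall RNA from 4 rat groups was hybridised to Affymetrix arrays, 1 array per group. The deposited signal intensities are linear values made with the MAS5 method, as the submitters' processing notes say. Neither scaling target, detection calls nor array build is given in the sources used here. Days 1 and 3 lie on different designs, with 15923 and 15333 probe sets that share 157, so each day was analysed alone.

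Probe sets with 1 gene symbol (12783 and 7564 outside the controls) were named from the platform annotation, updated to the GRCr8 RefSeq genes. Signals below an array's 30th percentile (22.0 in 3-NP and 17.1 in saline at day 1, 9.85 in 3-NP and 9.22 in saline at day 3) were set to it. A probe set was measured if it reached the 50th percentile in at least 1 array of its pair. The brightest probe set represented a gene, and the log2 ratio was centred on the median measured gene. With 1 array per group nothing was tested. The ratio code was tested on simulated data. Alternatives covered centring, lowess, quantile normalization, floor, filter and probe set choice.

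Named were all members with every probe set, all measured genes of the 3 short lists, and from other lists those 1.5-fold apart or the furthest; a few more were named after their values were seen. Members and lists were chosen with earlier results of these data known. Python 3.11.15, pandas 2.3.3 and statsmodels 0.14.6 were used.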

Additional observations from a re-analysis of the deposited data

Results flagged for a closer look

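Ogdh lay on opposite sides of the median gene on the 2 days, at -0.49 at day 1 and at 0.85 at day 3. The day 3 value is a bound from a dim probe set with saline at the floor, on another array design, and the difference between days was not tested.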

How the results depend on the processing

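Under centring on the 100 normalization probe sets that both designs share, lowess, quantile normalization, floors at the 20th or 40th percentile, no filter, the filter in both arrays and the mean of probe sets, each of the 8 members kept its side of the median gene and moved by less than 0.35. Over these settings Cs ran from 0.12 to 0.24, Ogdh from -0.53 to -0.42 and Mdh2 from -0.26 to -0.14. The floors could not move the members, whose signals all lay above them. Centring on the shared probe sets and the filters shifted all 8 alike. Apart from such a shift, the mean of probe sets could alter only Cs. With no filter the members' median was 0.04, against -0.03 in the main setting. As deposited, with no centring, every member moved up by 0.44, and Idh3g, Suclg1 and Mdh2 changed sign. The values were then 0.60 for Cs, 0.50 for Idh3a, 0.56 for Idh3b, 0.12 for Idh3g, -0.054 for Ogdh, 0.55 for Dlst, 0.31 for Suclg1 and 0.22 for Mdh2. The median was 0.41 over the 8 members and 0.50 over those before succinate, and 1 member was at least 1.5-fold higher. Of all genes at day 1 as deposited, 17.9% were at least 2-fold higher and 2.62% lower, and 40.2% and 6.09% at 1.5-fold. With no filter 3.84% were at least 2-fold lower and 10.8% at least 1.5-fold lower. With the filter in both arrays the share at least 2-fold higher at day 1 was 4.80%, and at day 3 5.60% were higher and 5.05% lower; fewer dim genes were then tested. Of 60 values of genes around the cycle, 50 moved by more than the SD of a probe set as deposited and 18 changed sign, none of them 2-fold apart at the outset. The 50 are the day 1 values, which all move by the same 0.44, while the day 3 values move by 0.10. That count therefore follows from the shift and says nothing of single genes. With the mean of probe sets 1 moved by that much, Nrf1 at day 3 (-0.10), and Pdha1 also changed sign (-0.20). No paired analysis was possible because each group has 1 array. With no replicates or detection calls, the number of arrays limits every value.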
